A study of Homo sapiens with 12 samples.

Results

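The 10 genes described here encode enzymes and 1 chaperone that act on collagen after its synthesis. They are the prolyl 4-hydroxylase subunits P4HA1, P4HA2 and P4HB, the lysyl hydroxylases PLOD1, PLOD2 and PLOD3, the lysyl oxidases LOX, LOXL1 and LOXL2, and the collagen chaperone SERPINH1. They were chosen by name for these roles, with earlier results of these data known, and each was found in 1 of the 55598 loci measured. Levels came from U87MG, a human glioblastoma cell line, kept for 24 hours without stress (normoxia, pH 7.4), in acidosis (normoxia, pH 6.0), in hypoxia of 1% oxygen (pH 7.4), or in both stresses (hypoxia, pH 6.0). From each condition, RNA was separated by ribosome density into a monosome, an oligosome and a polysome fraction and sequenced, which gave 12 libraries, 1 per condition and fraction. Without replicates no test was possible: every difference below compares individual libraries, and no p-value is given. All conditions used 1 cell line, and nothing was measured on proteins.

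Collagen chains are modified in the endoplasmic reticulum before they leave the cell. Prolyl 4-hydroxylase, a tetramer of alpha subunits (P4HA1 or P4HA2) and beta subunits (P4HB, which is also protein disulfide isomerase), makes the hydroxyproline that keeps the triple helix stable at body temperature. PLOD enzymes hydroxylate lysines, and SERPINH1 (also called HSP47) binds the folded procollagen. Outside the cell, the copper enzymes of the lysyl oxidase family oxidise lysines so that fibres become crosslinked. The hydroxylases use molecular oxygen as a substrate, and several of these genes are known targets of hypoxia-inducible factors, with LOX and PLOD2 studied in tumour invasion.

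Levels are FPKM, fragments per kilobase of transcript scaled to library size, so levels of different genes can be compared per length. Steady-state mRNA was the mean FPKM of the 3 fractions, weighted by the RNA factor of each fraction, and is called the aggregate level. No library of total RNA is among the 12, so this level covers only RNA in these fractions. The factors were 4.04 to 5.37 for polysome and 1 to 1.54 for monosome libraries, so polysome levels weigh more than monosome levels. Translation efficiency (TE) was the ratio of polysome to monosome FPKM, each plus 1. Both come from the same libraries and are not independent. A change is a log2 difference between 2 conditions relative to the median of 12211 compared loci, those with a mean of at least 1 FPKM and not small RNAs, and all 10 genes were among them. A gene was called when its steady-state mRNA passed 2-fold in both pairs of conditions for a factor, in the same direction in each of the 3 fractions, or when its TE passed 1.5-fold in both pairs. The pairs for hypoxia (at pH 7.4 and at pH 6.0) and for acidosis (in normoxia and in hypoxia) use the same 12 libraries.

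Read depth is not given in the deposited table. The summed FPKM ran from 372405 to 2164044 per library, and the 100 most abundant loci held 30.6% to 71.2% of it, with the highest values in the monosome libraries. The hypoxia marker genes CA9, a carbonic anhydrase, and VEGFA, a growth factor for blood vessels, were both called higher in mRNA with hypoxia (mean log2 2.71 and 1.89). Of 8 glioma and mesenchymal markers, 3 reached a mean of 1 FPKM (VIM, CD44 and EGFR), while NES (0.79 FPKM), SOX2, GFAP, S100B and OLIG2 did not. Of 19 markers of other cell types, 5 reached it. These were SNAP25 (4.50 FPKM), PDGFRB (1.49 FPKM), EPCAM (1.26 FPKM), KRT18 (2.56 FPKM) and CD68, whose locus also holds EIF4A1 and reads 687 FPKM.

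With hypoxia, 4 of the 10 genes were called higher in steady-state mRNA (P4HA1, PLOD2, LOX and the locus of LOXL2), against 2.15% of the compared loci, and 0 were called lower, against 0.917%. At pH 7.4 all 10 changes lay above 0, with a median log2 change of 1.93, and 9 lay above the 95th percentile of all compared loci (1.04). At pH 6.0, 9 lay above 0, with a median of 1.23 (8 under the authors' RNA scaling without centring, where PLOD3 joined LOXL1 below 0). At that pH, 5 lay above the 95th percentile (1.18). When the polysome fraction was left out of the aggregate, the change of PLOD3 with hypoxia, averaged over both pairs, was -0.27. The plot of all 12 libraries shows how each gene was spread over the fractions.

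**Figure D1:**
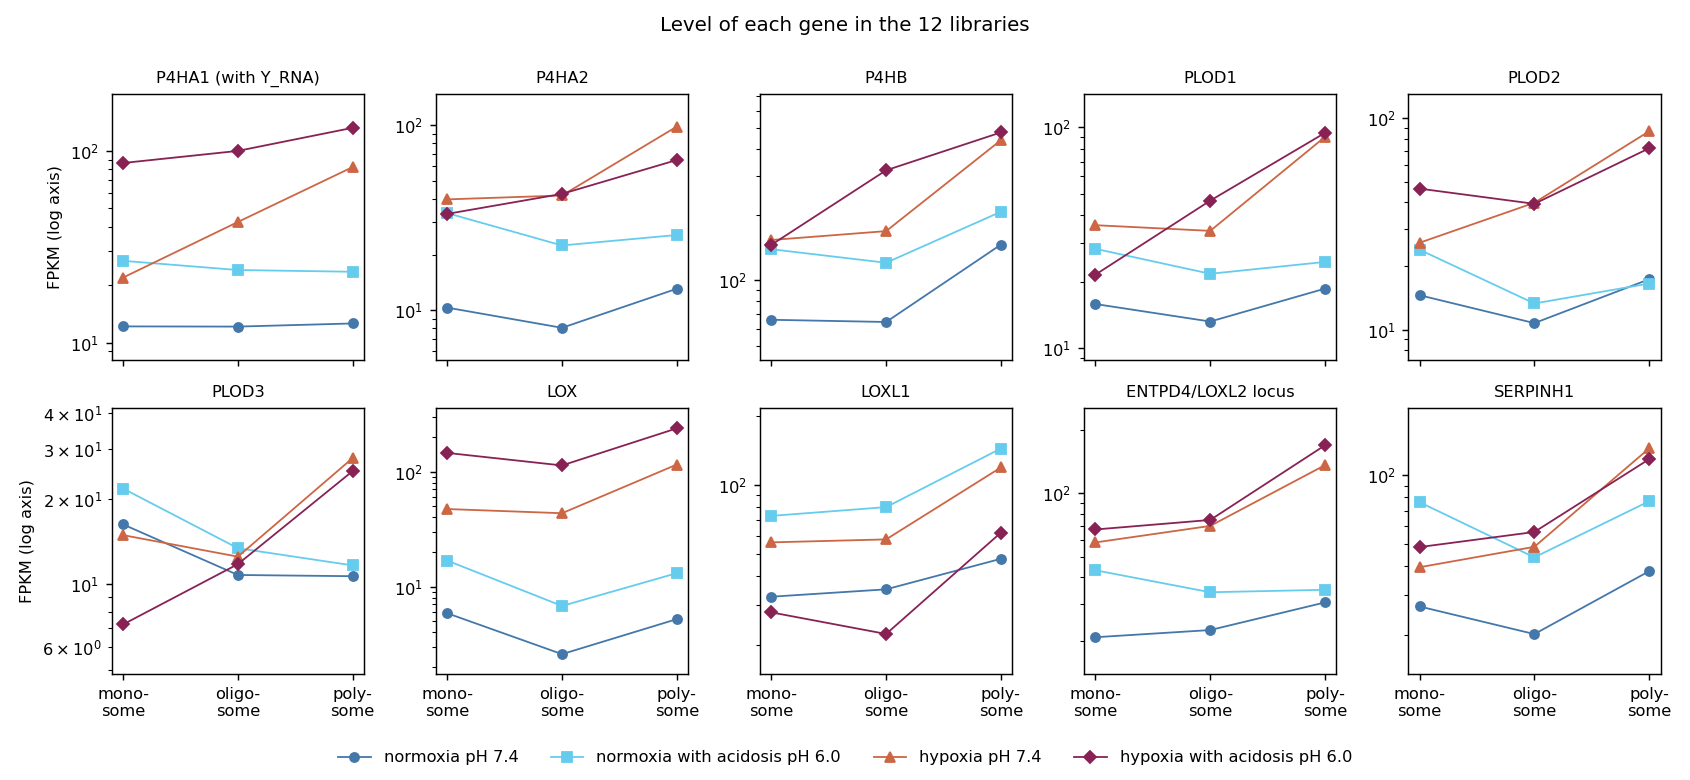
FPKM (log axis, a separate range per gene) of the 10 genes in the monosome, oligosome and polysome libraries; each line joins the 3 libraries of 1 condition, and each point is 1 library. LOX spans 2.59 to 237 FPKM, while the LOXL1 libraries of hypoxia with acidosis lie near those of normoxia.

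Of the prolyl 4-hydroxylase alpha subunits, P4HA1 (GRCh38 chromosome 10, 73007217 to 73096974, minus strand) read 12.1, 12.1 and 12.6 FPKM in the monosome, oligosome and polysome libraries of normoxia, and 21.8, 42.5 and 82.2 FPKM in those of hypoxia. In normoxia with acidosis the same libraries read 26.7, 23.9 and 23.4 FPKM, and in hypoxia with acidosis 86.3, 99.8 and 132 FPKM. In every fraction normoxia was lowest and hypoxia with acidosis highest. The aggregate level was 12.4 FPKM in normoxia and 58.0 FPKM in hypoxia, and 23.9 and 115 FPKM at pH 6.0, giving changes with hypoxia of 2.21 at pH 7.4 and 2.11 at pH 6.0. The P4HA1 locus also names a Y_RNA, whose part in these values cannot be told apart.

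P4HA2, the other alpha subunit (chromosome 5, 132191838 to 132295315, minus strand), read 10.3, 8.03 and 13.1 FPKM in normoxia and 39.7, 41.7 and 98.4 FPKM in hypoxia, again in the order monosome, oligosome, polysome. At pH 6.0 it read 33.5, 22.4 and 25.5 FPKM in normoxia and 33.2, 42.5 and 64.9 FPKM in hypoxia. The monosome libraries at pH 6.0 thus had nearly the same level with and without hypoxia. Its change with hypoxia was 2.60 at pH 7.4 and 0.96 at pH 6.0, just inside the 2-fold limit. Its monosome change at pH 6.0 was -0.13, so P4HA2 missed both the limit and the rule on direction and was not called.

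P4HB, the beta subunit (chromosome 17, 81843159 to 81860694, minus strand), was the most abundant of the 10 in each condition, with aggregate levels of 106, 163, 294 and 372 FPKM in normoxia, normoxia with acidosis, hypoxia and hypoxia with acidosis. Its mRNA passed 2-fold with hypoxia in both pairs (log2 1.53 and 1.08), but it was not called, since its monosome library was not higher at pH 6.0 (-0.05). P4HB was called without centring and under the authors' RNA scaling with centring, which differs from the main setting only through the 1 added. It was also called without the filter on low values, but that setting gave the same mRNA changes as no centring and is no separate alternative. The alpha subunits together stood at 0.219 of the P4HB level in normoxia, 0.300 with acidosis, 0.429 with hypoxia and 0.451 with both. Within the alpha subunits, the ratio of P4HA1 to P4HA2 was 1.13, 0.960, 0.850 and 2.16 in the same order, so P4HA1 exceeded P4HA2 most in hypoxia with acidosis.

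Of the lysyl hydroxylases, PLOD2 (chromosome 3, 146069440 to 146163653, minus strand), which hydroxylates lysines in the collagen telopeptides, read 14.6, 10.7 and 17.3 FPKM in normoxia and 25.8, 39.8 and 86.7 FPKM in hypoxia. At pH 6.0 it read 23.9, 13.3 and 16.5 FPKM in normoxia and 46.4, 39.4 and 72.1 FPKM in hypoxia. The hypoxia libraries were above the normoxia libraries of the same fraction at each pH. Its changes with hypoxia were 2.02 and 1.73.

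PLOD1, a lysyl hydroxylase of helical lysines (chromosome 1, 11934205 to 11975538, plus strand), had aggregate levels of 16.3, 23.7, 61.1 and 68.3 FPKM in the 4 conditions in the order above. Its changes with hypoxia (1.91 and 1.38) passed 2-fold, but the change in its monosome library at pH 6.0 was -0.49, so it was not called. PLOD3, which in addition glycosylates hydroxylysine (chromosome 7, 101205977 to 101218420, minus strand), changed least of the 3, from 11.5 to 20.1 FPKM at pH 7.4 and from 13.4 to 18.3 FPKM at pH 6.0 (0.82 and 0.32). PLOD2 made up 34.5% of the summed PLOD level in normoxia and 42.4% in hypoxia, while PLOD3 made up 27.1% and 14.3%.

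LOX, the founding lysyl oxidase (chromosome 5, 122063195 to 122078360, minus strand), had the largest change of the 10. It read 5.87, 2.59 and 5.21 FPKM in the normoxia libraries and 47.2, 43.4 and 115 FPKM in the hypoxia libraries. With acidosis it read 16.8, 6.79 and 13.1 FPKM in normoxia and 145, 113 and 237 FPKM in hypoxia. No library of hypoxia overlapped any library of normoxia. These libraries are fractions and not replicates, and how many of the compared loci separate in this way was not counted. The aggregate rose from 4.39 to 77.9 FPKM at pH 7.4 and from 10.7 to 189 FPKM at pH 6.0, a ratio of 17.8 and 17.7. With 1 FPKM added to each level, as in all changes here, it was 15.3-fold and 15.1-fold relative to the median locus.

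LOXL2 (chromosome 8, 23297189 to 23425328, minus strand), a lysyl oxidase of basement membrane collagen, lies in a locus that also names the overlapping gene ENTPD4, and their fragments cannot be told apart. That locus read 20.8, 22.5 and 30.4 FPKM in normoxia, 58.4, 70.0 and 136 FPKM in hypoxia, 43.1, 33.9 and 34.9 FPKM in normoxia with acidosis and 67.3, 74.7 and 169 FPKM in hypoxia with acidosis. Its changes with hypoxia were 1.94 and 1.70. The call was lost when the polysome fraction was left out of the aggregate, and under the authors' RNA scaling without centring. LOXL1, which crosslinks elastin (chromosome 15, 73925989 to 73952137, plus strand), went in opposite directions at the 2 pH values and is described with acidosis below.

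SERPINH1 (chromosome 11, 75562056 to 75572783, plus strand) had aggregate levels of 30.2 FPKM in normoxia, 62.5 FPKM with acidosis, 86.1 FPKM with hypoxia and 89.0 FPKM with both. Its change with hypoxia was 1.55 at pH 7.4 and 0.40 at pH 6.0, and it was not called. Its pseudogene SERPINH1P1 and the antisense gene P4HA2-AS1 stayed at or below 0.048 FPKM in each library.

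**Figure D2:**
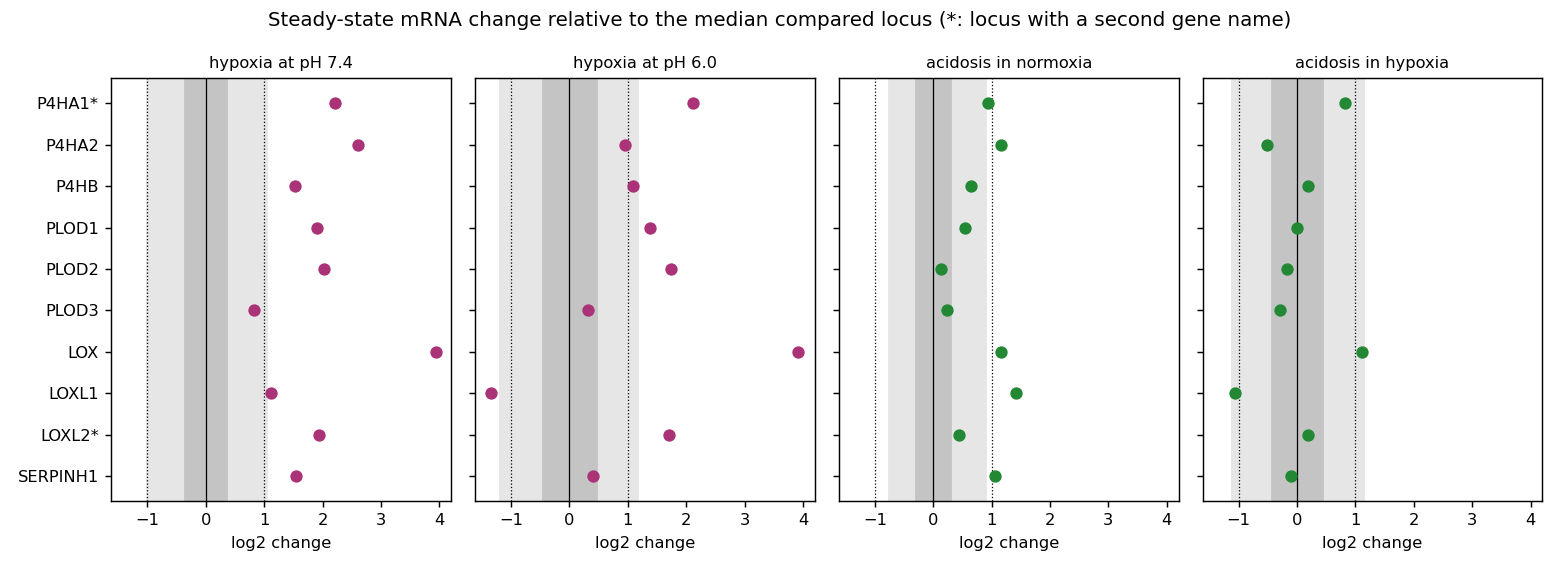
Log2 change in steady-state mRNA of the 10 genes in the 4 pairs of conditions, relative to the median of 12211 compared loci. Dark and light grey bands hold the interquartile range and the 5th to 95th percentiles of those loci, dotted lines mark 2-fold, and an asterisk marks a locus with a second gene name. LOX lies at 3.94 and 3.91 with hypoxia, and LOXL1 lies at 1.12 at pH 7.4 and -1.35 at pH 6.0.

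Promoters of LOX, P4HA1 and PLOD2 are shown because these genes had the largest mRNA changes with hypoxia, as the mean of both pairs, among those with a sequence. Each is the 250 bases before the first start in the RefSeq promoter table (GRCh38.p14), read along the gene: chr5:122078260-122078509, chr10:73096867-73097116 and chr3:146161185-146161434, all on the minus strand. Capitals mark ACGTG or GCGTG on either strand, the core motif that hypoxia-inducible factors bind. The windows of LOX and P4HA1 overlap the start of the gene in GENCODE release 29, and that of PLOD2 lies inside it, because some transcripts there start further upstream.
LOX: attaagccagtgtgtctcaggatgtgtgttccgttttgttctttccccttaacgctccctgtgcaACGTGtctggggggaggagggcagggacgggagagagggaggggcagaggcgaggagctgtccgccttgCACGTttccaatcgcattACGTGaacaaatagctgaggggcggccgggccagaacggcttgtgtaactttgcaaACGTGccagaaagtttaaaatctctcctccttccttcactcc
P4HA1: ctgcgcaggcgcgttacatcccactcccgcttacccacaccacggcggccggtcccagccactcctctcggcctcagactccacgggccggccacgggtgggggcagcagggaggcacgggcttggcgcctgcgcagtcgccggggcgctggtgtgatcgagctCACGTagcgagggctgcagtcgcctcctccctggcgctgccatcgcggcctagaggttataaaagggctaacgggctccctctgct
PLOD2: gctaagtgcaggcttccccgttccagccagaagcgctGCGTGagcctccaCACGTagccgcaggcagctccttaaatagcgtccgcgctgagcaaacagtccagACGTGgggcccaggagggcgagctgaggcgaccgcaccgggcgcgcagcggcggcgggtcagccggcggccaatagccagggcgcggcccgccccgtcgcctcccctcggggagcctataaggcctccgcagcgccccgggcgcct
LOX had 4 matches, all ACGTG, PLOD2 had 3 and P4HA1 had 1, which lay 86 bases before its start. Of the 9 genes in that table, 5 had at least 1 match (55.6%), against 43.1% of 27305 promoters. PLOD1 had 2 and P4HB had 1. No match was found in these windows for P4HA2, PLOD3, LOXL1 or SERPINH1. At least 3 matches, as in LOX and PLOD2, were found in 7.89% of all promoters. A match is a stretch of letters and not a measured binding site.

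With acidosis, LOX was the only gene of the 10 called higher in steady-state mRNA, against 1.22% of the compared loci, and 0 were called lower, against 0.237%. Its log2 change was 1.15 in normoxia and 1.12 in hypoxia, and the call was lost when the oligosome fraction was left out of the aggregate. P4HA1 came close, at 0.93 and 0.82. In normoxia all 10 changes with acidosis lay above 0 (median 0.79), whereas in hypoxia 5 lay above and 5 below (median -0.05), or 4 and 6 under the authors' RNA scaling, with or without centring, and 6 and 4 without centring of the deposited FPKM.

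LOXL1 had the widest gap between these pairs. It read 32.5, 35.04 and 47.6 FPKM in the monosome, oligosome and polysome libraries of normoxia and 73.2, 79.9 and 144 FPKM in normoxia with acidosis. In hypoxia it read 56.1, 57.8 and 119 FPKM, and in hypoxia with acidosis 27.8, 22.4 and 61.9 FPKM. Each stress alone thus gave higher levels than normoxia in every fraction, while the condition with both was lower than either stress alone in every fraction. The aggregate was 41.1 FPKM in normoxia, 109 FPKM with acidosis, 86.5 FPKM with hypoxia and 45.7 FPKM with both. The change with acidosis was 1.42 in normoxia and -1.06 in hypoxia, and the difference between these was not tested. The antisense gene LOXL1-AS1 overlaps LOXL1 and read 12.1 to 63.8 FPKM. Its monosome, oligosome and polysome libraries read 19.5, 31.8 and 12.1 FPKM without stress, 26.3, 55.3 and 23.9 FPKM in acidosis, 42.8, 63.8 and 19.5 FPKM in hypoxia and 33.2, 35.4 and 28.8 FPKM under both. The condition with both was lower than either stress alone in its oligosome library, but not in its monosome or polysome library. Libraries were made with a stranded kit, but the strand setting of the counting is not given in the sources used here, and the part of LOXL1-AS1 in the LOXL1 values was not tested.

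**Figure D3:**
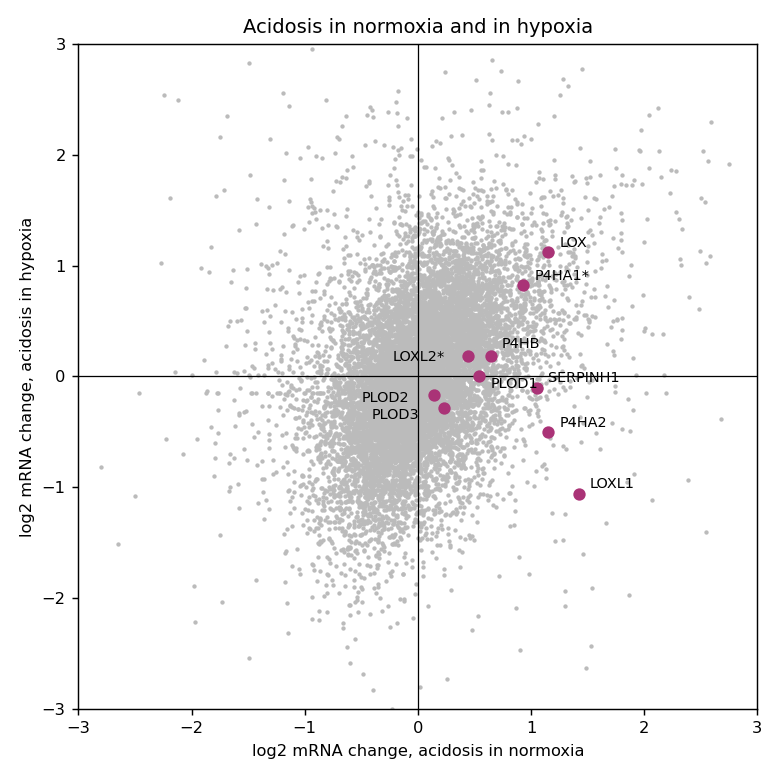
Log2 change in steady-state mRNA with acidosis in normoxia (x axis) and in hypoxia (y axis), with 12211 compared loci in grey (39 lie outside the axes) and the 10 genes in colour; an asterisk marks a locus with a second gene name. LOX lies at 1.15 and 1.12, and LOXL1 at 1.42 and -1.06.

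P4HA2 and SERPINH1 also differed between the pairs, with changes of 1.15 and 1.06 with acidosis in normoxia and -0.51 and -0.10 in hypoxia. The make-up of the lysyl oxidase family moved with these changes. LOX made up 6.12% of the summed level of LOX, LOXL1 and the LOXL2 locus in normoxia, 6.90% with acidosis, 29.6% with hypoxia and 52.5% with both. LOXL1 made up 57.3%, 70.4%, 32.8% and 12.7% in the same order. In single libraries, the ratio of LOX to LOXL1 was 0.074 to 0.180 in normoxia and 3.84 to 5.22 in hypoxia with acidosis, which did not overlap. The libraries of a condition are fractions and not replicates, and no share of other gene pairs is given.

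**Figure D4:**
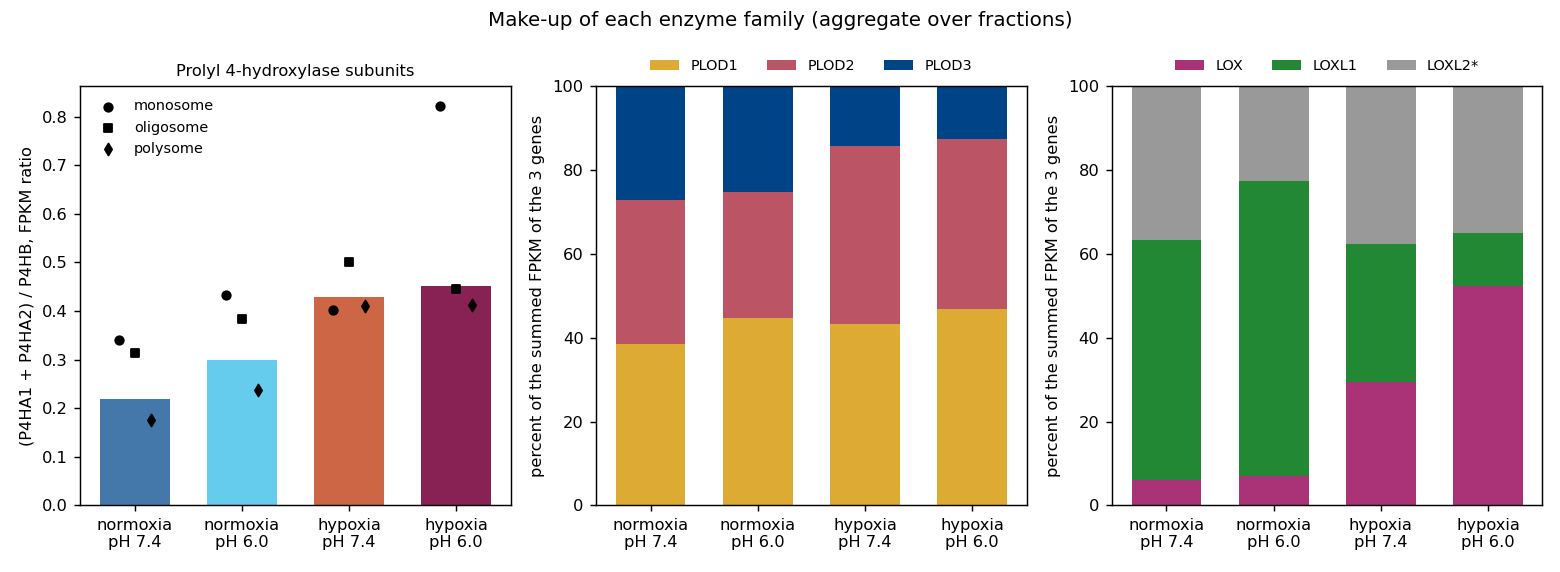
Left, aggregate level of P4HA1 plus P4HA2 over P4HB (bars) with the ratio in each of the 3 libraries (points); middle and right, percent of the summed aggregate level held by each PLOD gene and by LOX, LOXL1 and the LOXL2 locus (asterisk, with ENTPD4), in the 4 conditions. The alpha to beta ratio is 0.219 in normoxia and 0.451 with both stresses, and the LOX share goes from 6.12% to 52.5%.

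Hypoxia with acidosis was then compared with normoxia in a single pair. Steady-state mRNA was called higher for 8 of the 10 genes, against 12% of the compared loci, and lower for 0, against 12.5%. The exceptions were PLOD3 (log2 0.54) and LOXL1 (0.06). LOX was highest, at 5.06 or 33.3-fold relative to the median locus with 1 FPKM added to each level, followed by P4HA1 at 3.03. The plain ratio of the LOX aggregates was 43.1. The median over the 10 genes was 1.89.

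In TE, 8 of the 10 genes were called higher with hypoxia (P4HA1, P4HA2, PLOD1, PLOD2, PLOD3, LOX, the LOXL2 locus and SERPINH1), against 8.81% of the compared loci, and 0 were called lower, against 10.1%. With TE taken as polysome over oligosome, 2 were called (PLOD1 and PLOD3). With FPKM multiplied by the authors' RNA factors and no centring on the median locus, the same 2 were called, while with these factors and centring the 8 genes above were called. Centring takes the factors out again except through the 1 added, so the count with centring was nearly fixed in advance and is no separate support. The factors shifted the median TE change of all compared loci by -0.29 at pH 7.4 and -0.70 at pH 6.0. Shares of all compared loci called under these alternatives are not given here, so their counts have no background beside them. The median TE ratio of the 10 genes was 1.21 in normoxia, 0.845 in normoxia with acidosis, 2.46 in hypoxia and 2.29 with both, while the median compared locus read 1.16, 1.12, 1.09 and 1.06. Taken as polysome over monosome, all 10 TE changes with hypoxia lay above 0 at each pH. Under the authors' RNA scaling without centring, P4HA1 and LOXL1 lay below 0 at pH 6.0. For polysome over oligosome, the mean TE change of P4HB with hypoxia was -0.0006.

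PLOD3 and PLOD1 had the largest mean TE changes with hypoxia, at 2.03 and 1.74. The TE ratio of PLOD3 was 0.677 in normoxia, 0.557 with acidosis, 1.81 with hypoxia and 3.17 with both. In mRNA, PLOD3 had the change nearest to 0 of the 10 in each hypoxia pair, so its order in TE and in mRNA was not the same. In its monosome libraries the change with hypoxia was -0.17 at pH 7.4 and -1.59 at pH 6.0, and in its polysome libraries it was 1.38 and 0.98. The TE ratio of PLOD1 was 1.16, 0.877, 2.47 and 4.24 in the order of conditions above.

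For P4HA1 the TE ratio was 1.03 in normoxia, 0.881 with acidosis, 3.65 with hypoxia and 1.52 with both. PLOD2 had the same order, at 1.18, 0.704, 3.28 and 1.54. For LOX it was 0.905, 0.790, 2.41 and 1.63. These genes, P4HA2 and SERPINH1 had their highest TE in hypoxia at pH 7.4, and the LOXL2 locus, PLOD1, PLOD3, P4HB and LOXL1 had theirs with both stresses. P4HB (0.48 at pH 7.4) and LOXL1 (0.19 at pH 6.0) missed the limit of 0.58 in 1 of the hypoxia pairs.

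**Figure D5:**
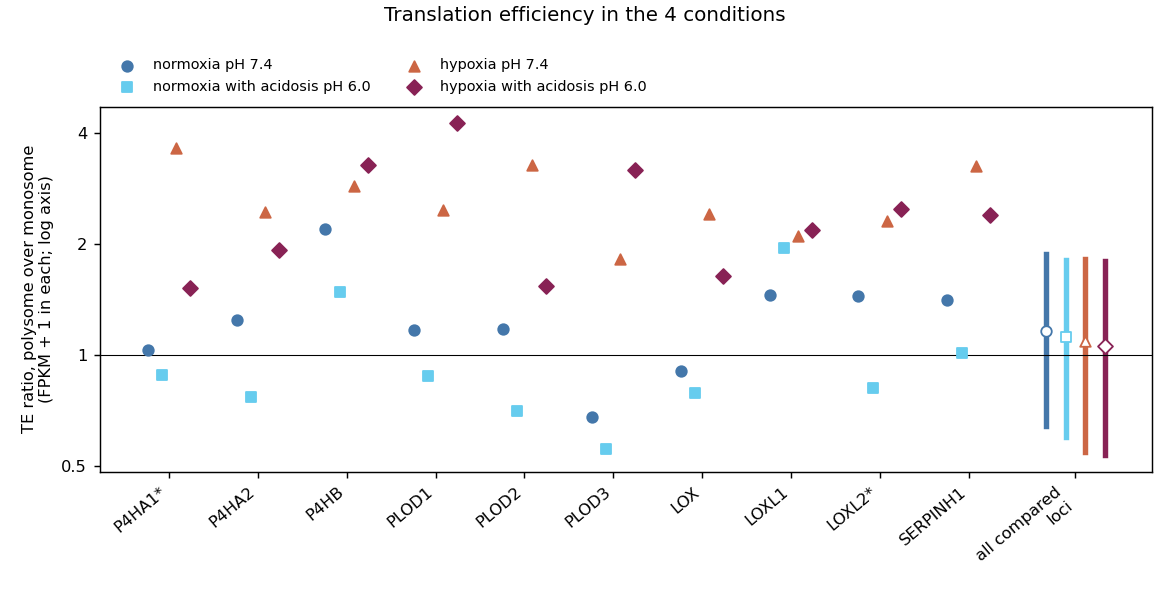
TE ratio (polysome over monosome FPKM, each plus 1; log axis) of the 10 genes in the 4 conditions, 1 pair of libraries per point; at the right, open symbols and bars give the median and quartiles of the compared loci, and an asterisk marks a locus with a second gene name. The median of the 10 genes is 1.21 in normoxia and 2.46 in hypoxia, against 1.16 and 1.09 for the compared loci.

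With acidosis, TE was called lower for PLOD2 alone, against 6.67% of the compared loci, and higher for 0, against 5.72%. Its change was -0.69 in normoxia and -1.08 in hypoxia, and this call was lost under the authors' RNA scaling without centring, with polysome over oligosome and at a 2-fold limit. In normoxia, 9 of the 10 TE changes with acidosis lay below 0 (median -0.40), with LOXL1 the exception at 0.48, but 5 did under the authors' RNA scaling without centring. In hypoxia, 5 lay below 0, from -1.25 (P4HA1) upward, and 5 above it, up to 0.82 (PLOD3). With both stresses against normoxia, TE was called higher for 9 of the 10 genes, PLOD2 (0.44) being the exception, against 27.8% of the compared loci, and lower for 0, against 29.8%. This count was 3 under the authors' RNA scaling without centring (8 with centring), 3 with polysome over oligosome and 2 at a 2-fold limit. No share of the compared loci is given for these alternatives.

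The distribution over the gradient was followed with fractions weighted by their RNA factors. A median of 59.7% of the mRNA of the 10 genes was in the polysome fraction in normoxia, 49.1% with acidosis, 68.5% with hypoxia and 73.0% with both. With fractions weighted equally these were 40.9%, 32.3%, 56.01% and 51.7%, which puts hypoxia above both stresses. With RNA factors, the median compared locus had 52.3%, 47.3%, 48.6% and 57.04%. PLOD3 went from 47.3% in normoxia to 65.4% in hypoxia and 76.8% with both, and P4HB from 70.0% to 70.7% and 71.9%. With acidosis in normoxia the oligosome share was higher, at a median of 37.5% against 26.9%, and the oligosome share of the median compared locus was 40.2% against 31.5%.

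Lists of 55 other genes covered the collagen pathway and, beyond it, 5 oxygen-sensing dioxygenases and 5 copper and ascorbate supply genes. Of these 55 genes, 34 were measured. In mRNA with hypoxia the median change of the 34 was 0.37, 0 were called lower (0.917% of the compared loci were) and 3 higher (2.15%). These were the lysyl oxidase LOXL3 (mean log2 1.84) and the fibrillar collagen chains COL1A2 (2.08) and COL5A1 (1.63), substrates of the enzymes above. COL1A2 had an aggregate of 27.6 FPKM in normoxia, 63.6 FPKM with acidosis, 181 FPKM with hypoxia and 186 FPKM with both. COL1A1 (1.76) passed 2-fold in both pairs (2.13 at pH 7.4 and 1.39 at pH 6.0). It was not called in mRNA, since it was not higher in each fraction. All 5 measured fibrillar collagens had changes above 0, with a median of 1.63.

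In TE, 7 of the 34 were called higher with hypoxia (8.81% of the compared loci were) and 1 lower (10.1%), with a median of 0.31. Those called higher were LOXL3 (1.37), COL1A1 (1.37), COL1A2 (1.20), the procollagen C-proteinase enhancers PCOLCE (0.90) and PCOLCE2 (0.68), and the COPII coat genes SEC24D (1.23) and SEC31A (1.40), which serve procollagen export. HIF1AN, the asparaginyl hydroxylase that acts on hypoxia-inducible factors, was called lower (-0.98). Acidosis gave 0 calls in mRNA, where 1.22% of the compared loci were called higher and 0.237% lower. In TE it gave 1 higher, CREB3L1 (0.80), a transcription factor of the secretory pathway, against 5.72%, and 0 lower, against 6.67%. SEC31A shares its locus with THAP9-AS1.

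The remaining lists had no call in mRNA. In prolyl 3-hydroxylation and folding, 8 genes were measured with a median mRNA change of 0.51 with hypoxia, and P3H2, a prolyl 3-hydroxylase, had the largest (1.11). Of the copper and ascorbate genes, the copper importer SLC31A1 had the largest (-0.39), and COLGALT1, which attaches galactose to collagen, was at 0.18.

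Across the 12 libraries, log2 levels of the 10 genes were compared pairwise as a description. The points share their libraries, and conditions and fractions are mixed. Pearson r over 45 pairs ran from -0.05 to 0.961 with a median of 0.804, and the highest was that of PLOD2 and LOXL2. LOXL1 had the lowest median r with the others (0.327). The genes whose levels were most like those of LOX were ICAM5 (r = 0.973), C10orf10 (0.968) and OBSL1 (0.966). For P4HA1 they were SEMA5B (0.963), SYTL3 (0.956) and LNX1 (0.949), for PLOD2 they included TMEM45A (0.961) and IGFBP3 (0.957), for the LOXL2 locus SLC6A6 (0.976), CCDC80 (0.963) and IGFBP5 (0.962), and for P4HA2 GAL3ST4 (0.973), WISP2 (0.954) and OS9 (0.954).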

How the data were processed

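The 10 genes and all gene lists were chosen with earlier results of these data known, so they are no independent support for a direction. The authors deposited FPKM values per assembled locus for 12 libraries, and, per the file headers, a signal that is the FPKM multiplied by 1 RNA factor per library. Tools listed in the submitters' processing notes are STAR 2.5.0, bcl2fastq, Cuffnorm and Cufflinks 2.2.1, with GRCh38 as build. Which annotation and which Cuffnorm normalization were used is not stated there. The 12 factors were recovered from the signal (tolerance 1e-06), and the names and totals beside it were not used.

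Steady-state mRNA was log2 of the factor-weighted mean FPKM of the 3 fractions plus 1, and TE was the log2 ratio of polysome to monosome FPKM, each with 1 added. Adding 1 makes changes of weakly expressed loci look smaller. If FPKM was scaled to the library total, abundant transcripts in 1 library lower the other loci there. Changes were centred on the median of 12211 compared loci. A mean change averages both pairs for a stress. A list gene was measured where exactly 1 compared locus held its name, other names allowed, as for the 10 genes. Some list genes therefore share a locus with others (FKBP9, TMEM38B, SEC31A, COL5A2, EGLN2, EGLN3 and P4HTM). Within each list, called genes were named, or else the gene of largest mean mRNA change with hypoxia, with at most 4 per list. Likeness was Pearson r of log2 FPKM plus 1, centred per library, over loci naming 1 gene, and 1 gene picked this way is not reported here. Coordinates are from GENCODE release 29. Scripts were tested on simulated data and ran in Python 3.11.15 with numpy 2.4.6, pandas 2.3.3 and matplotlib 3.10.9. With 1 library per condition and fraction, precision could not be estimated.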

Additional observations from a re-analysis of the deposited data

Results flagged for a closer look

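Changes in steady-state mRNA of 3 genes went in opposite directions in the 2 pairs of conditions for a factor in each of the 3 fractions. How many of the compared loci met this rule was not counted. LOXL1 changed with acidosis by 2.48 more in normoxia than in hypoxia on the log2 scale, and with hypoxia by 2.47 more at pH 7.4 than at pH 6.0. P4HA2 changed with acidosis by 1.66 more in normoxia than in hypoxia, and PLOD3 by 0.52 more. For acidosis in hypoxia minus acidosis in normoxia, 0.262% of the compared loci lay below LOXL1, 1.1% below P4HA2 and 20.5% below PLOD3. None of these differences was tested, since each condition and fraction has 1 library.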

How the results depend on the processing

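No paired analysis was possible because each condition and fraction has 1 library and no replicate numbers. The number of the 10 genes called higher in mRNA with hypoxia was 2 when loci naming several genes were left out, since P4HA1 and LOXL2 then have no value, and 7 without the monosome fraction (P4HA2, P4HB and PLOD1 added). That for acidosis was 0 without the oligosome fraction and 2 at 1.5-fold (P4HA1 added). TE calls with hypoxia were 2 under the authors' RNA scaling without centring and 2 with polysome over oligosome. TE calls lower with acidosis were 0 under both of these and 0 at 2-fold. With both stresses, TE calls were 3, 3 and 2 under the same alternatives. The cause of these differences was not tested. For counts under alternatives, no share of the compared loci is given. With the RNA scaling and centring, an alternative added after values had been seen, these TE counts were 8, 1 and 8. Centring takes the factors out again except through the 1 added, so these counts are no separate support. The RNA scaling shifted the median mRNA change of all compared loci with hypoxia by -0.31 at pH 7.4 and -0.43 at pH 6.0, and the median TE change with acidosis in normoxia by 0.36. With fractions weighted equally, the median polysome share of the 10 genes was 40.9%, 32.3%, 56.01% and 51.7% in normoxia, normoxia with acidosis, hypoxia and both. The rule for when a list gene counts as measured was varied after its values had been seen. With loci naming 1 gene only, 28 genes were measured, 4 were called higher in mRNA with hypoxia (EFEMP2 added, from 1 of its 2 loci), 6 higher in TE with hypoxia (SEC31A lost) and 2 higher in TE with acidosis (EFEMP2 added). The alternatives for both stresses together, the family ratios and the gradient shares were also added after values had been seen. Of the summary counts and shares under alternatives, 17 moved past the margin used (1.5 times for counts) and 120 stayed within it. Some of the 120 are counts of 0 that stayed at 0. For single genes, a call was lost in 21 results and gained in 9, and no called change was reversed under any alternative run. Depth and replicate error are unknown, so no value here has an interval.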
